A study of Mus musculus with 2 samples.

Results

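The genes described here encode the scaffold of the excitatory synapse. They are 9 genes, chosen by name from the models that the deposited tables assign to annotated genes: the membrane-associated guanylate kinases Dlg4 (PSD-95) and Dlg2 (PSD-93), the linkers Dlgap1, Dlgap3 and Dlgap4, the deep-layer scaffolds Shank1 and Shank3, and the Homer proteins Homer1 and Homer2. All 9 had reads, of 18534 annotated genes with reads in the 2 libraries. They held 882 reads on 182 transcript models in replicate 1 and 970 reads on 220 models in replicate 2, which is 0.114% and 0.143% of reads assigned to such genes.

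The data are long-read RNA sequencing of total RNA from the left cerebral cortex of adult B6CASTF1/J mice, an F1 hybrid strain, aged 18 to 20 months. There is 1 group of 2 libraries, labelled biological replicates 1 and 2, each made from 2 µg of RNA, and both carry the same donor entry. No treatment or genetic change is given, so the comparison open to the data is between the libraries. The labels give the sex as female in the sample fields and as male in a free-text description, and they do not say whether the replicates came from separate animals, so every p-value here measures counting error between these libraries only.

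At an excitatory synapse, Dlg proteins hold glutamate receptors at the membrane and bind Dlgap proteins, which bind Shank, and Shank in turn binds Homer, the link to metabotropic glutamate receptors and to calcium release. Long Homer proteins form multimers through a coiled coil at their end. The short Homer1 form known as Homer1a lacks that coiled coil, is induced by neuronal activity and competes with the long form.

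The sequences below show where the coding regions of these genes differ between transcripts in the cortex, because most of the results turn on which of these parts a read carried. They are from the GENCODE M21 transcripts on mm10, 5′ to 3′. For Homer1 the lower-case bases before the capitals are the shared end of exon 5. The capitals are what follows it: the whole 36 nt exon 6 of the long form (chr13:93386345-93386380, followed by the start of exon 7), the continuation of exon 5 to the stop codon in Homer1-204 (chr13:93356080-93356113, the Homer1a arrangement), or the alternative exon in intron 5 to the stop codon in Homer1-206 (chr13:93366278-93366452).
Homer1-203, long: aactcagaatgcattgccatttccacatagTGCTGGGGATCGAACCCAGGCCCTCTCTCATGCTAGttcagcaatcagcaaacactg
Homer1-204, short: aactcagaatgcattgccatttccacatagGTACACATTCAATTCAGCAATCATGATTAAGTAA
Homer1-206, short: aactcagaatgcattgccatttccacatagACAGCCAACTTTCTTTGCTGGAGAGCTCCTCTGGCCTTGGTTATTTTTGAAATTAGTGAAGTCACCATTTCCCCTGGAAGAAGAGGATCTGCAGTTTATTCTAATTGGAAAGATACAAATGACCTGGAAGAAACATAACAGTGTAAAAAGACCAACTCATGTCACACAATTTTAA

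In the other genes the capitals are bases that a read either carried or lacked, and the lower-case bases are the neighbouring coding sequence. They are a 33 nt extension at an acceptor of Homer2 (minus strand, chr7:81618683-81618715) and of Dlgap3 (chr4:127235385-127235417), and a 30 nt exon (chr17:70718196-70718225) and an 84 nt acceptor extension (chr17:70761075-70761158) that follow each other in Dlgap1. Dlg4 has a 66 nt exon (chr11:70026923-70026988) and a 9 nt acceptor extension (chr11:70030595-70030603). In Dlgap4 an 80 nt exon (chr2:156748023-156748102) and an 89 nt exon (chr2:156748332-156748420) take the same place, and a longer donor (chr2:156761929-156761985 up to its stop codon) ends the reading frame early.
Homer2-206, 33 nt: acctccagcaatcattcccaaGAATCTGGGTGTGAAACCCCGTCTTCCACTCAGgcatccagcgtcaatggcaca
Dlgap3-201, 33 nt: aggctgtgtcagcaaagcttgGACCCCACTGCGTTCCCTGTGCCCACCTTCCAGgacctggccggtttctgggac
Dlgap1-209, 30 nt exon: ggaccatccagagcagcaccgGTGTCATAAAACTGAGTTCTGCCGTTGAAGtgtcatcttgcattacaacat
Dlgap1-209, 84 nt: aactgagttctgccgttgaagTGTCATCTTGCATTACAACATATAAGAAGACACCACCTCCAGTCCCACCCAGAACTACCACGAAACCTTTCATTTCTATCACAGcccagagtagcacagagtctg
Dlg4-203, 66 nt exon: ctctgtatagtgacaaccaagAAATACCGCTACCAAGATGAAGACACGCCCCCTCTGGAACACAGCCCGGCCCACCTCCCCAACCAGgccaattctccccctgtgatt
Dlg4-203, 9 nt: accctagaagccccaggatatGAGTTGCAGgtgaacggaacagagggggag
Dlgap4-205, 80 nt exon: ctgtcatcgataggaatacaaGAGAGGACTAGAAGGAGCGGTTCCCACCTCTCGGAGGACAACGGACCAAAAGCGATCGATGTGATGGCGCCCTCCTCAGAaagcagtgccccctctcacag
Dlgap4-212, 89 nt exon: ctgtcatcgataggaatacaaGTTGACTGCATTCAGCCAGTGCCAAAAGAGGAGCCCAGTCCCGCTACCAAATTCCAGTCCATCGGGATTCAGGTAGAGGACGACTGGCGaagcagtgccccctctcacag
Dlgap4-201, 71 nt donor: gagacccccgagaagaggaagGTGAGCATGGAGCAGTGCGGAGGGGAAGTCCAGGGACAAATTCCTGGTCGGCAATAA
The Homer2, Dlgap3, Dlgap1 and Dlg4 parts are whole numbers of codons. The 80 and 89 nt exons leave the same remainder on division by 3, so exchanging them keeps the frame.

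The libraries held 774629 and 679147 reads on annotated genes, 88.9% and 80.9% of the total, and models lying opposite a gene took 8.85% and 16.9% of the mouse reads. Levels are given in CPM, the read count of a gene divided by those library totals and expressed per 1000000 reads. A long read counts 1 cDNA molecule whatever its length, so no length was divided out. Long transcripts can be captured less completely, which was not tested here. Excitatory neuron markers were all present, with a summed level of 1483 and 1280 CPM over 8 genes, led by the vesicular glutamate transporter Slc17a7. Striatal neuron markers were also present in both libraries, 9 of 9 genes with a sum of 878 and 776 CPM, and their part in the levels below was not tested. The cerebellar markers Pcp2, Cbln3 and Gabra6 were at 0, and the remaining one, Cbln1, had 2 and 5 reads (2.58 and 7.36 CPM). In bulk tissue, fewer cells of a type and less RNA per cell cannot be told apart.

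Over all models, the Dlgap linkers had the most reads among the scaffold genes and the guanylate kinase gene Dlg2 the fewest, and the order below depends on the models counted. Dlgap3 stood at 250 CPM in replicate 1 and 299 CPM in replicate 2 (mean 275 ± 34.3, SD, n = 2), Dlgap4 at 205 and 281 CPM (243 ± 53.7) and Dlgap1 at 210 and 258 CPM (234 ± 33.4). The ranges of the 3 genes over the libraries overlap. Homer1 followed at 136 and 230 CPM (183 ± 66.6), its spread reaching the Dlgap levels, and Dlg4 at 141 and 141 CPM (141 ± 0.453) lay inside that spread.

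Shank3 had 90.4 and 92.8 CPM (91.6 ± 1.70), below Dlg4 in each library by more than the spread. Shank1 had 51.6 and 57.4 CPM (54.5 ± 4.09) and Homer2 41.3 and 45.6 CPM (43.5 ± 3.07), on 79 and 63 reads over both libraries, and whether these neighbours differ was not tested. Dlg2 had 12.9 and 23.6 CPM (18.2 ± 7.53), on 10 and 16 reads. A level of 3 reads corresponds to 3.87 and 4.42 CPM, so all 9 genes were above it. Among the annotated genes with reads, the mean CPM of Dlgap3 ranked at the percentile of 96.5 and that of Dlg2 at 56.3.

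The order changed when fewer kinds of model were counted. On annotated transcripts alone, Homer1 led with a mean of 133.7 CPM, before Dlgap3 at 108.8, Dlgap4 at 72.2 and Dlgap1 at 54.5 CPM, and Shank1 and Shank3 were at 0, below Dlg2 at 4.15 CPM. On multi-exon models alone, the Dlgap genes still led (255.7 CPM for Dlgap3), and Dlg4 had 81.1 CPM. There Shank3 fell to 25.5 CPM and Shank1 to 20.4 CPM, both below Homer2 at 38.0 CPM.

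**Figure D1:**
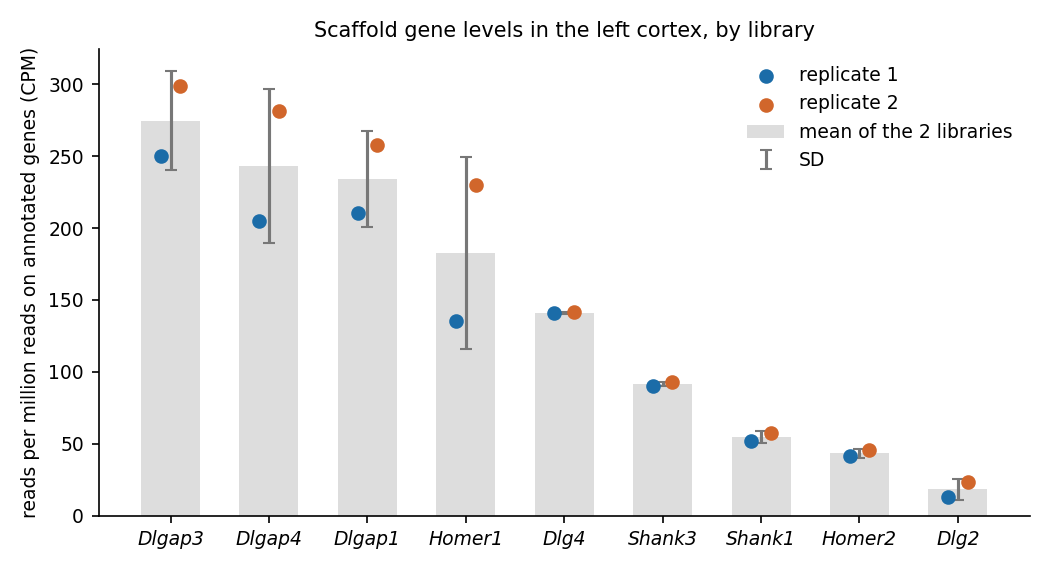
Level of each scaffold gene in CPM (vertical axis, linear) in replicates 1 (blue) and 2 (orange), with the mean of the 2 libraries as a grey bar and its SD. Dlgap3, Dlgap4 and Dlgap1 lead with overlapping spreads, Homer1 shows the widest gap between libraries (136 and 230 CPM), and Dlg4 and Shank3 the narrowest.

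Homer1 was the scaffold gene that differed between the libraries. It had 105 reads in replicate 1 and 156 in replicate 2, a log2 ratio of 0.76 (counting SE 0.18), with an adjusted p = 0.00368 by the exact binomial test with Benjamini-Hochberg adjustment over 9143 genes with 20 or more reads. That is 1 of 9 scaffold genes called, where 1.99% of all tested genes were called. Dlgap4 had 159 and 191 reads and a log2 ratio of 0.45 (SE 0.15), which did not pass the exact binomial test (p = 0.00376, adjusted p = 0.115). Counted on annotated transcripts only, 56 and 49 reads, Dlgap4 had a ratio of -0.0028.

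The other 7 genes did not pass, with log2 ratios from 0.01 for Dlg4 to 0.82 for Dlg2 (SE 0.55). All 9 ratios were above 0 with a median of 0.25, beside 52.7% above 0 and a median of 0.03 over all genes tested. With DESeq2 size factors, under which the median over all genes was -0.05, 7 of 9 were above 0, and Dlg4 (-0.071) and Shank3 (-0.040) lay below it. With TMM scaling 8 of 9 were above 0.

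Of the remaining family members Dlg1, Dlg3, Dlg5, Dlgap2, Dlgap5, Shank2 and Homer3, Dlgap5 had no reads and 5 could be tested. None passed the exact binomial test over all genes, and their median log2 ratio was 0.41. Dlg3, at 125 and 149 CPM, and Dlg1, at 117 and 135 CPM, stood near Dlg4, and Shank2, at 51.6 and 78.0 CPM (unadjusted p = 0.0487, exact binomial test), was the 1 gene of these 5 under an unadjusted 0.05, as were 1075 of all 9143 genes tested.

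Of 26 tested genes for other proteins of the excitatory postsynaptic density, 2 were higher in replicate 2 and 0 lower by the exact binomial test with Benjamini-Hochberg adjustment, with a median log2 ratio of 0.33. Over all 9143 genes tested, 115 were called higher and 67 lower. The 2 genes were Agap2, at 24.5 and 79.5 CPM, and the kinase gene Tnik, at 12.9 and 41.2 CPM. The most abundant of the list, the kinase subunit gene Camk2b (716 and 657 CPM) and Nsmf (478 and 514 CPM), did not pass. Of 14 tested membrane partners, receptors and adhesion proteins that the scaffold holds, the NMDA receptor gene Grin1 was higher in replicate 2 (382 and 509 CPM) and 13 did not pass, with Gria2, an AMPA receptor gene, at 243 and 311 CPM. The 5 genes of the inhibitory postsynaptic scaffold had a median ratio of 0.02 and none passed or had an unadjusted p under 0.05 by the exact binomial test, with Nlgn2 at 120 and 156 CPM and the gephyrin gene Gphn at 91.7 and 81.0 CPM. None of these lists was tested as a set.

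The difference in Homer1 lay mostly in its short forms. Among multi-exon reads, the long form with the coiled coil had 62 reads in replicate 1 and 67 in replicate 2, which is 80.04 and 98.7 CPM and a log2 ratio of 0.30 (counting SE 0.25). Reads ending in the continued exon 5, the Homer1a arrangement, numbered 16 and 46, which is 20.7 and 67.7 CPM and a ratio of 1.67 (SE 0.40). Reads ending in the alternative exon of intron 5 numbered 3 and 9, and 1 further short read in replicate 2 ended elsewhere.

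Short forms were therefore 19 of 81 multi-exon reads in replicate 1, 23.5% (95% Wilson interval 15.6 to 33.8), and 56 of 123 in replicate 2, 45.5% (37.0 to 54.3), and these intervals do not overlap. The planned comparison of the most used last exon across genes gave Homer1 an unadjusted p = 0.00175 by Fisher's exact test and an adjusted p = 0.622 over 5335 genes, so the shift did not pass. Of 6 scaffold genes 0 passed it, beside 0.0187% of all genes tested. Homer1 was the 1 scaffold gene with an unadjusted p under 0.05, as had 97 of the 5335 genes. The mean short share was 34.5% ± 15.6 (SD, n = 2).

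Single-exon Homer1 models leaned the same way, with overlapping intervals. Those inside the last exon of Homer1-204 had 9 and 18 reads, and those inside the last exon of the long form had 13 and 8. Models around the last exon of Homer1-205 and Homer1-206 had 2 and 3 reads, and models elsewhere had 0 and 4. A single-exon read carries no splice junction, so these were kept out of the shares above. With the single-exon models at the last exons of Homer1-204, Homer1-205 and Homer1-206 counted as short, short forms were 30 of 105 and 77 of 156. These are shares of all Homer1 reads, again higher in replicate 2.

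**Figure D2:**
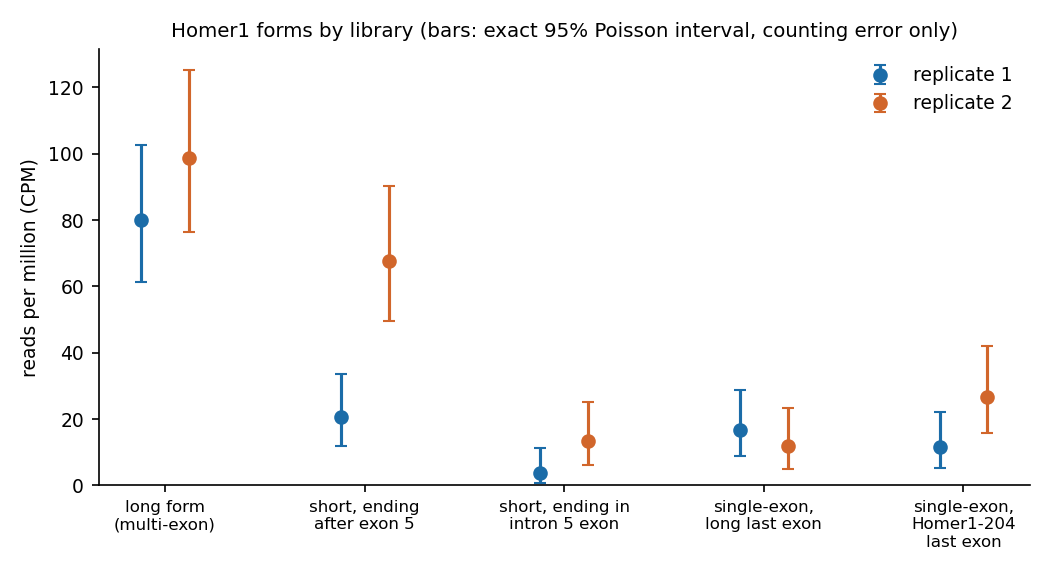
Level of the Homer1 forms in CPM (vertical axis, linear) in replicates 1 (blue) and 2 (orange), with exact 95% Poisson intervals that cover counting error only. The intervals of the long form overlap (80.04 and 98.7 CPM) and those of the form ending after exon 5 do not (20.7 and 67.7 CPM).

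Homer1 (ENSMUSG00000007617.18) lies at chr13:93299635-93405129 on the plus strand. Of its 12 annotated transcripts, 5 had reads. Homer1-203, the long form with 10 exons and 1098 coding nt, had 58 and 61 reads, Homer1-204, with 5 exons and 558 coding nt, had 15 and 45, and Homer1-206, with 6 exons, had 3 and 7. Homer1-201, the long form without the 36 nt exon, and Homer1-205, whose alternative exon starts 35 nt upstream of that in Homer1-206, had 0 and 1 read each. The 36 nt exon shown above was in 62 of 62 and 62 of 63 informative reads, so nearly every long Homer1 read carried it. The annotated first exon was shared by the forms and used by 78 of 81 and 120 of 123 multi-exon reads.

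**Figure D3:**
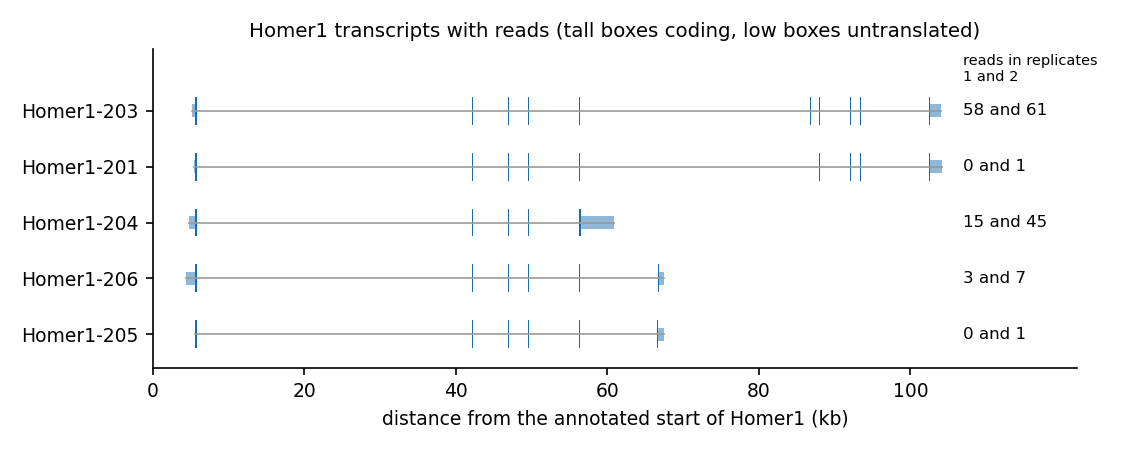
Exons of the Homer1 transcripts with reads, against distance from the annotated start of the gene in kb (tall boxes coding, drawn at least 0.15 kb wide, low boxes untranslated), with the reads of replicates 1 and 2 at the right. The short transcripts Homer1-204 and Homer1-206 end before the distant exons of Homer1-203, and Homer1-204 had 15 and 45 reads.

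The short Homer1a form is known as an immediate early gene product, induced by activity alongside genes such as Arc and Fos. The list of immediate early genes held 2 genes higher in replicate 2 among 11 tested by the exact binomial test with Benjamini-Hochberg adjustment, beside 115 of all 9143 genes. The synaptic gene Arc was at 299 and 409 CPM and the transcription factor gene Egr3 at 100.7 and 174 CPM. The other 9 did not pass, with Junb at 325 and 359 CPM and Fos at 49.1 and 53.0 CPM, and the list's median log2 ratio was 0.14. Excitatory neuron markers had a median of -0.21 and 0 of 7 passed. Among markers of other cells, 3 were lower in replicate 2 by the same test. They were the astrocyte gene Gfap at 285 and 153 CPM (1 of 5 astrocyte markers, whose sum was 3546 and 3686 CPM), the endothelial gene Cldn5 at 265 and 172 CPM (1 of 3 tested) and the myelin gene Mbp at 1490 and 1269 CPM (1 of 4 tested). The part of cell makeup or of activity before collection in the Homer1 values was not tested.

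Homer2 (ENSMUSG00000025813.14), a long Homer with a coiled coil, lies at chr7:81600481-81707527 on the minus strand and used its 33 nt acceptor in a mixed way. The longer acceptor was in 16 of 27 informative reads in replicate 1 and 10 of 24 in replicate 2, and the intervals overlap (40.7 to 75.5% and 24.5 to 61.2%). The corresponding transcripts were Homer2-206, with 1062 coding nt and 15 and 10 reads, and Homer2-201, with 1029 coding nt and 10 and 13 reads. No other annotated Homer2 transcript of 9 had reads. Among the scaffold genes, Homer2 reads lay most often on complete models. Models running from the start to the stop codon of a principal coding region held 26 of 32 and 24 of 31 reads. A principal coding region is the one that the annotation ranks as the main protein of the gene.

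That measure of completeness separated the scaffold genes. Pooled over the libraries, 79.4% of Homer2 reads lay on models spanning a principal coding region, 57.4% of Dlgap3 reads, 48.3% of Homer1 reads, 36% of Dlgap4 reads, 34.9% of Dlgap1 reads and 20.5% of Dlg4 reads. For Shank1, Shank3 and Dlg2 the count was 0 of 79, 0 of 133 and 0 of 26, with upper Wilson limits of 4.64%, 2.81% and 12.9%. The median over 8807 genes with 20 or more reads was 80.4%. Homer2 cannot be placed against it (interval 67.8 to 87.5%), and the pooled shares of the other 8 genes lay below it. The share spans a range of coding lengths, from 1062 nt in Homer1 and Homer2 to 6501 nt in Shank1, and short Homer1 forms do not reach the principal stop codon by their structure.

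Shank3 (ENSMUSG00000022623.16, chr15:89499623-89560261, plus strand) and Shank1 (ENSMUSG00000038738.15, chr7:44310253-44360572, plus strand) were seen almost only through their 3′ ends. Of 70 and 63 Shank3 reads, 51 and 45 were on single-exon models (72.9% and 71.4%) and 16 and 14 on a 2-exon model joining the next-to-last exon to the last. Of 40 and 39 Shank1 reads, 29 and 21 were single-exon (72.5% and 53.8%) and 8 and 11 were on the corresponding 2-exon model. No annotated transcript of either gene, 9 for Shank3 and 6 for Shank1, had a read, and the longest partial Shank3 models had 21 and 18 exons with 1 read each, both in replicate 1. All single-exon models of both genes were of the class the files name genomic, so without that class the single-exon share was 0 for Shank1 and Shank3, and likewise for Dlgap4, Homer1 and Homer2. For comparison, single-exon models held 12.4% and 13.7% of all reads on annotated genes.

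The largest Shank3 single-exon model lay at chr15:89557760-89560259 in replicate 1 (50 reads) and at chr15:89554881-89560259 in replicate 2 (42 reads), with the same end. The model of replicate 2 starts upstream of the last exon. A model merges its reads, so the ends of single reads are not known from it. Largest among the Shank1 single-exon models were chr7:44359287-44360099 with 24 reads and chr7:44359176-44360099 with 14, within the last annotated exon. An unannotated 28 nt exon was in 1 of 19 and 2 of 18 Shank3 reads across its position, and an unannotated 81 nt exon in 1 of 9 and 2 of 13 Shank1 reads. Median lengths of the models, weighted by reads, were 2500 and 5379 nt for Shank3 and 813 and 1822 nt for Shank1, against annotated principal transcripts of 7131 and 9826 nt. The part of transcript length in this coverage was not tested. On the strand opposite Shank1, 1179 and 1607 reads were assigned to antisense models, against 40 and 39 on the Shank1 strand.

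Dlgap1 (ENSMUSG00000003279.17, chr17:69969073-70821413, plus strand) was read mostly from its downstream first exons. The locus covers 852341 nt, and among reads that began at the distal or the main proximal first exons, 11 of 97 in replicate 1 and 11 of 107 in replicate 2 began at the distal one (11.3% and 10.3%). Those starting at the proximal ones numbered 86 and 96. Among reads joined from the main proximal exon to the next exon, the donor ending that exon at position 70522262 of chromosome 17 was used by 46 of 70 and 57 of 82, and a donor 6 nt further by the rest. The leading annotated transcript, Dlgap1-209 with 2076 coding nt, starts there and had 23 and 31 reads, and Dlgap1-211, also proximal, had 3 and 10. Dlgap1-201, distal with 2946 coding nt, had 3 and 0.

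The 30 nt exon of Dlgap1 was in 90 of 110 and 96 of 121 informative reads that joined the longer acceptor, the one with the 84 nt extension (81.8% and 79.3%). Among those that joined the shorter acceptor it was in 9 of 9 and 13 of 14. With the longer acceptor, the difference between the libraries did not pass (Fisher's exact test, p = 0.740, adjusted p = 1). Neither this exon nor the 66 nt exon of Dlg4, the 2 scaffold exons tested, passed, where 0.0658% of 1519 exons did. The 84 nt acceptor extension, next in the transcript, was in 91 of 100 and 96 of 109 reads that carried the 30 nt exon, whatever splice site came before that exon. Reads that skipped the 30 nt exon joined the longer acceptor in 20 and 25 cases and the shorter in 0 and 1. The 2 parts were therefore both present in most reads, and the absence of both was the rarest combination.

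The end of Dlgap1 also varied. Among reads that ended at either of its main last exons, 97 of 128 and 119 of 145 ended at the downstream one, starting at position 70818025 of chromosome 17, and 31 and 26 at the one starting at 70815194, which carries another stop codon. The upstream end took 24.2% and 17.9% (intervals 17.6 to 32.3% and 12.5 to 24.98%). It appeared with the distal first exon in 3 of 10 and 2 of 9 reads and with the proximal ones in 20 of 81 and 15 of 91, so both ends were joined to both starts. Another, early end in an exon starting at 70662569 was used by 7 of 137 and 9 of 156 multi-exon reads. New combinations of annotated splice sites held 45 of 163 and 40 of 175 Dlgap1 reads.

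Dlgap3 (ENSMUSG00000042388.14, chr4:127169204-127237022, plus strand) had reads on 3 of its 4 annotated transcripts. Dlgap3-201, with 12 exons and 2931 coding nt, had 68 and 69 reads, and Dlgap3-203, with another first exon and the same coding length, 4 and 10. Of reads that began at one of these first exons, 72 of 77 and 82 of 95 began at that of Dlgap3-201 (93.5% and 86.3%). Suffix models, which begin at an internal exon, held 80 and 81 reads. The longer 33 nt acceptor was in 162 of 176 and 170 of 188 reads (92.0% and 90.4%), and in 70 of 72 and 76 of 82 of those from the first exon of Dlgap3-201. All 194 and 203 reads lay on models holding the stop codon. Dlgap3 is known to be strongly expressed in the striatum, and striatal markers were present (878 and 776 CPM in sum).

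Dlgap4 (ENSMUSG00000061689.15, chr2:156613705-156764363, plus strand) used distal and proximal first exons at similar shares. Of reads that began at one of them, 45 of 82 and 46 of 92 began at the distal exon (54.9% and 50%). Its leading annotated transcript, Dlgap4-205, is distal and had 27 and 26 reads, and Dlgap4-202, which starts at an exon that is internal in other transcripts and has the same coding length of 2967 nt, had 15 and 8. Dlgap4-212, the distal transcript with the 89 nt exon, had 7 and 5. Shorter annotated transcripts from the proximal exons were Dlgap4-203, with 1359 coding nt and 3 and 5 reads, and Dlgap4-204, with 855 coding nt and 4 and 2 reads. The leading unannotated chains joined annotated sites into 7 exons and had 11 and 14 and 9 and 15 reads. Single-exon models held 34 and 47 reads, in most cases inside the last exon.

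The 80 nt exon was in 88 of 112 and 95 of 113 reads that held either exclusive exon, the 89 nt exon in 22 and 18, and both in 2 and 0. The 89 nt exon was used in 7 of 45 and 6 of 45 reads from the distal first exon and in 7 of 33 and 7 of 37 from the proximal ones. The longer donor, which adds 71 nt and the stop codon of Dlgap4-201, was in 14 of 123 and 18 of 140 reads (11.4% and 12.9%). With the distal first exon it occurred in 5 of 43 and 8 of 45 reads, so it was not limited to the short annotated transcript Dlgap4-201, which had 0 and 1 read. With the proximal ones it occurred in 5 of 37 and 1 of 46, and with the 89 nt exon in 1 of 22 and 1 of 18.

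Dlg4 (ENSMUSG00000020886.17), the major guanylate kinase scaffold of the synapse, lies at chr11:70016942-70047522 on the plus strand, and its reads were also weighted to the end of the gene. Single-exon models held 54 of 109 reads in replicate 1 and 34 of 96 in replicate 2, nearly all in the last exon, and suffix models, which lack upstream exons, held 28 and 35. The single-exon share was 49.5% and 35.4% (Fisher's exact test p = 0.0482, adjusted p = 1). Of 8 scaffold genes with 20 reads in each library 0 passed this test, beside 0.278% of all genes tested. Dlg4 was the 1 scaffold gene with an unadjusted p under 0.05, as had 259 of the 6116 genes. Without genomic models the mean single-exon share of Dlg4 moved from 42.5% to 24.1%. That mean joins 51 of 106 reads in replicate 1 with 0 of 62 in replicate 2 and describes neither library. The largest single-exon model, 51 and 33 reads, is classed as genomic in replicate 2 only. On multi-exon reads alone Dlg4 had a log2 ratio of 0.36, on 55 and 62 reads.

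Of 22 annotated Dlg4 transcripts 3 had reads. Dlg4-203, with 20 exons and 2172 coding nt, had 12 and 14 reads and Dlg4-215, 9 nt shorter in its coding region, had 3 and 4. Of the multi-exon reads, 22 of 55 and 24 of 62 began at a first exon that is never internal in the annotation. The 66 nt exon was in 17 of 20 and 19 of 23 reads (85.0% and 82.6%), and the 9 nt extension in 22 of 27 and 18 of 28 (81.5% and 64.3%, intervals 63.3 to 91.8% and 45.8 to 79.3%). Counted whatever splice sites it was joined to, the 66 nt exon was in 18 of 21 and 20 of 24 reads. Among those informative for the 9 nt acceptor, the 9 nt extension was in 13 of 17 and 15 of 20.

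Dlg2 (ENSMUSG00000052572.17, chr7:90476672-92449247, plus strand) was near the limit of these libraries. Its locus spans 1972576 nt, and of its 10 and 16 reads 6 and 9 were single-exon, 1 and 7 of them in introns. Dlg2-208, an annotated transcript without a coding region, had 1 and 2 reads. Of multi-exon reads, 2 of 4 and 5 of 7 ended in the last exon with the annotated stop codon, so isoforms of Dlg2 could not be resolved at this depth. A chain of 22 exons, a new combination of annotated sites, had 1 read in each library and was the Dlg2 model with the most exons.

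**Figure D4:**
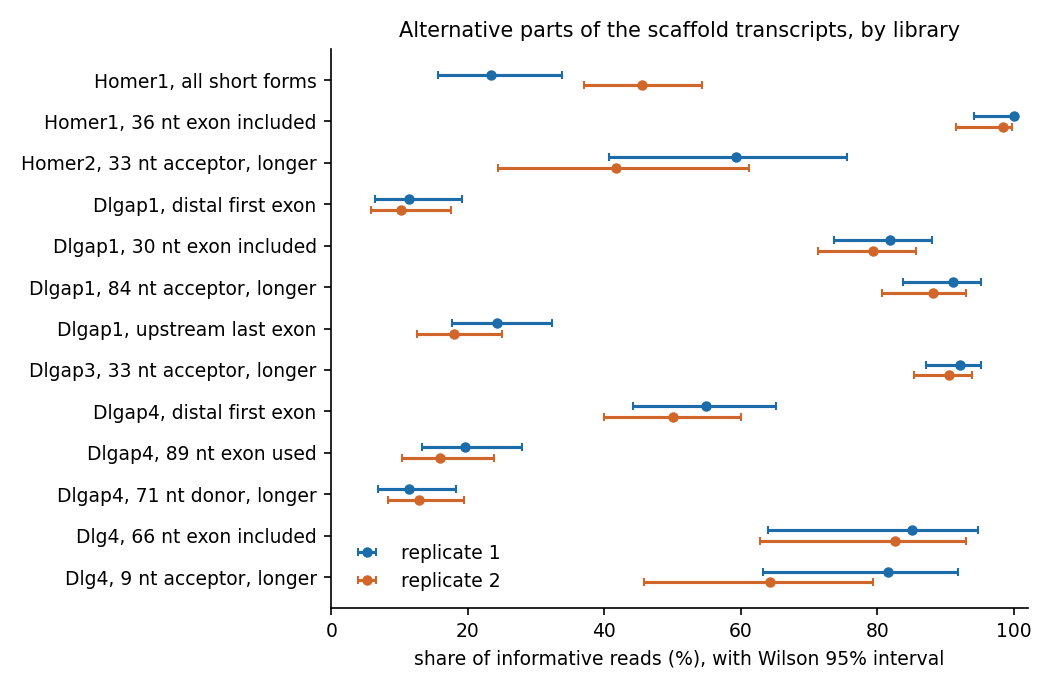
Share of informative reads carrying each alternative part (horizontal axis in percent), in replicates 1 (blue) and 2 (orange), with Wilson 95% intervals. The 30 nt exon of Dlgap1 is shown for reads that joined the longer acceptor. The 2 intervals overlap for every part except the Homer1 short forms, at 23.5% and 45.5%.

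The share of the most used transcript or class was also compared, with the single-exon models of a gene counted as 1 class. That class was the largest in Dlg4, Shank1, Shank3 and Dlgap4, so for these genes the comparison repeats that of the single-exon share. By Fisher's exact test, adjusted as above, 0 of 8 genes passed, beside 0.164% of all 6116 genes. Homer1 and Dlg4 had an unadjusted p under 0.05, as had 402 of the 6116 genes. In Homer1 the largest was the transcript Homer1-203, holding 58 of 105 and 61 of 156 reads (Fisher's exact test, p = 0.0115, adjusted p = 0.503). Models outside the annotation were many but thin: Dlgap1 had 60 unannotated multi-exon chains, of which 27 occurred in both libraries and 26 rested on 1 read, Dlgap4 had 48 with 17 in both, and Homer1 had 12 with 1 in both.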

How the data were processed

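The members and gene lists were chosen with earlier results of these data known. Per the deposited notes, reads were aligned to mm10 with GENCODE M21 annotation, and TALON is named in the deposited annotation files; aligner, versions and filters are stated in no source used here. The deposited tables hold whole read counts per transcript model and library, which the authors did not normalize. Known models carry annotation ends, and other models merge reads, so model ends are not read ends. Gene counts sum all models given to an annotated gene. Spike-in and antisense models were left out of CPM. Unannotated models were matched by intron chain. Log2 ratios use a pseudocount of 1 CPM.

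Tests were the exact binomial test (20 or more reads) and Fisher's exact test (20 in each library), Benjamini-Hochberg adjusted over all genes or exons, with threshold 0.05, in Python 3.11.15 with scipy 1.17.1, checked on simulated data. Alternatives used edgeR 4.0.16 (TMM), DESeq2 1.42.0 size factors, minimums, model classes and each library alone. The libraries held 774629 and 679147 reads; intervals and floors of 3 reads cover counting error only. Named were all 9 genes, up to 4 transcripts each, short Homer1 models, cassette exons with 10 or more reads, and from each list up to 2 genes by reads and any gene called; Dlg1, Dlg3, Shank2, Fos and other parts were named after their values were seen.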

Additional observations from a re-analysis of the deposited data

Results flagged for a closer look

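Reads lying opposite Shank1 were far more numerous than reads on Shank1 itself, in data that the comparisons above do not use. A single-exon model on the opposite strand, inside the last annotated exon of Shank1 and past its stop codon, held 1167 reads in replicate 1 (chr7:44357933-44359209) and 1591 reads in replicate 2 (chr7:44357913-44358530). On the Shank1 strand there were 40 and 39 reads. The nearest annotated gene on that strand, 1700008O03Rik, overlaps the Shank1 locus and ends 834 and 1513 nt from these models. Single-exon reads carry no splice junction to show their strand, and the origin of these reads was not tested. The values are above the 3 reads that a count of 0 allows. With 2 libraries, no test for a library standing apart could be made.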

How the results depend on the processing

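The call of Homer1, and of no other scaffold gene that could be tested, held under TMM and DESeq2 size factors. It also held with annotated transcripts only, multi-exon models only and minimums of 10 and 1 reads (adjusted p up to 0.0260, exact binomial test). Annotated transcripts only left 6 scaffold genes to test, and multi-exon models only left 8. Genes called over the whole table were 182 of 9143 in the main setting and 243 of 9143 with DESeq2 size factors. With annotated transcripts only they were 73 of 6508, and with multi-exon models only 77 of 7933. Of 41 alternative log2 ratios, 4 changed sign, all uncalled: Dlg4 to -0.029 with TMM and -0.071 with DESeq2 size factors, Shank3 to -0.040 with DESeq2 size factors, and Dlgap4 to -0.0028 with annotated transcripts only. Matching transcripts by class gave 1 scaffold gene differing in its major transcript instead of 0, and leaving out genomic models gave 1 differing in its single-exon share instead of 0. Both were Dlg4, whose largest single-exon model, 51 and 33 reads, is an incomplete splice match in replicate 1 and genomic in replicate 2, so it counts as 51 and 0. Calls over all genes rose as well. Class matching gave 111 of 6116 genes (1.81%) instead of 10. Leaving out genomic models gave 236 of 5619 (4.20%) instead of 17 of 6116. The short Homer1 share of 34.5% was 39.0% with single-exon models and 34.9% on annotated transcripts, and 23.5% to 45.5% by library. The order of the mean levels depends on the models counted: annotated transcripts alone put Homer1 first and Shank1 and Shank3 at 0, and multi-exon models alone put both below Homer2. No paired analysis was possible because the 2 libraries form 1 group. Depth limits Dlg2, Shank1 and Homer2, each under 80 reads.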
